A study of Rattus norvegicus with 22 samples.

Results

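Myosin light chains are small subunits that wrap around the lever arm of the sarcomeric myosin heavy chain, and myosin binding proteins C and H lie along the thick filament beside it. The 8 genes described here are 5 light chain genes (Myl1, Myl2, Myl3, Myl4 and Myl7) and 3 binding protein genes (Mybpc2, Mybpc3 and Mybph), taken by name from the 26442 gene names on the array. Each had exactly 1 probe, and all 8 were among the 23479 genes tested. They were measured in engineered cardiac tissues, in which heart cells mixed with matrix set into a cylindrical construct fixed between anchors. The cells came from the ventricles of embryos (gestational day 14.5, Sprague Dawley rats), and the constructs stayed in culture for 7 days. Control tissue (7 arrays) was neither stretched nor treated. Stretch tissue (7 arrays) was loaded along its axis from day 5 for 48 h at 0.5 Hz and 5% elongation. BIRB796 tissue (4 arrays) received 10 µM of the p38 mitogen-activated protein kinase inhibitor BIRB796 for 48 h without stretch, and stretch with BIRB796 tissue (4 arrays) received both. No vehicle is named for the tissues without inhibitor. The replicates are called biological without being tied to a litter or culture, so the spread behind each p-value is that among these samples and may be partly technical.

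Regulatory light chains (Myl2, Myl7) can be phosphorylated by myosin light chain kinases, which tunes cross-bridge activity, while essential light chains (Myl1, Myl3, Myl4) stabilise the lever arm. In the adult heart Myl7 and Myl4 mark atrial muscle and Myl2 and Myl3 ventricular muscle, but the atrial forms are also made in the embryonic ventricle and decline there as it matures. Myl1 and Mybpc2 are the forms of fast skeletal muscle, Mybpc3 is the cardiac binding protein C, and Mybph is a shorter relative of binding protein C. The comparisons ask whether mechanical load and p38 inhibition shift the balance between these atrial, ventricular and skeletal forms in embryonic ventricular tissue.

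The probes are short enough that isoform identity rests on their sequences, so those of the 5 light chains are shown as deposited, 5′ to 3′. Each is 60 bases long. The longest run that any pair of the 8 probes had in common was 8 bases, in Myl2 and Myl3, and it stands in capitals. The probes were compared only with each other and not with the transcripts of the other genes, so binding to another isoform was not tested.
Myl7: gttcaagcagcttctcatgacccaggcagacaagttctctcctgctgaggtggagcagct
Myl4: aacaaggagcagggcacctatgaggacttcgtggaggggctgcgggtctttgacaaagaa
Myl2: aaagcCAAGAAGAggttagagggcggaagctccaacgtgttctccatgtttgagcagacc
Myl3: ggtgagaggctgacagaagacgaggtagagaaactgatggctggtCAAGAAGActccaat
Myl1: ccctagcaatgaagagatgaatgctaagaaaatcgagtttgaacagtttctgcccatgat

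In the array design's rat build rn4 the Myl7 probe lies at chr14:86568278-86568683 and the Myl1 probe at chr9:65719604-65722502, both on the minus strand. The Myl3 probe lies at chr8:115145098-115146213 on the plus strand. These spans exceed the probe's own length, so each of the 3 probes crosses intron sequence and reads joined exons. The Myl2 probe, at chr12:35663794-35663853 on the minus strand, and the Mybpc3 probe, at chr3:75495320-75495379 on the plus strand, each match an unbroken stretch. The Mybpc2 probe spans chr1:94982555-94982699 (minus strand) and the Mybph probe chr13:47157265-47157436 (plus strand). The files give no position for the Myl4 probe.

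Signals are given below as log2 signal minus the array's own 75th percentile, called the log2 level. Levels of different probes are not compared with each other, because probes bind with different strength. Signal strength sets how firmly each gene can be read. Before scaling, Myl7 reached a median of 252669 signal units over the 22 arrays, Myl2 161001, Myl3 130723, Myl4 119131 and Mybpc3 19335. The skeletal forms were dim, with medians of 378 for Mybpc2, 59.0 for Myl1 and 39.3 for Mybph. No member was saturated, and all were well above background on 22 of 22 arrays except Mybph, which was so on 21. Mybpc3 alone had repeated spots, and its 10 spots spread by a median SD of 0.08 (log2) within an array.

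The scans fell into 3 sessions, which limits what can be compared. Controls 1 to 3 and stretch samples 1 to 3 were scanned in session 1. Stretch samples 4 to 7 made up session 2 by themselves. The remaining 4 controls were scanned in session 3, together with every array of tissue given BIRB796, stretched or not. There BIRB796 replicates 2, 3 and 4 shared slide 9 with stretch with BIRB796 replicate 4 and with no control. Controls 4 to 7 lay on slides 6, 7 and 8, and only BIRB796 replicate 1 shared a slide with a control. Slide and BIRB796 alone can therefore hardly be told apart against control. Stretch replicates 4 and 5 differed by an SD of 0.208 (log2) between arrays, against 0.227 and 0.235 between repeated spots within each, so they were averaged and counted as 1 sample, leaving 21. Stretch replicates 6 and 7 stood apart from the others of session 2. Relative to the mean of the other session 2 samples, stretch replicate 6 was at -2.07 to -2.61 in Myl2, Myl3, Myl4, Myl7 and Mybpc3, and the 12 cardiomyocyte markers averaged 2.96 there, against 3.95 to 4.82 in session 1 and 4.36 to 4.78 in session 3. With a session term, the differences given below take their size from sessions 1 and 3, and session 2 adds only to the estimate of the spread. All 12 cardiomyocyte markers and all 10 ventricular markers were above background on 22 arrays. Of 12 atrial markers 10 were so as well, while Bmp10 was on 9 arrays and Dhrs9 on 0. Of the skeletal muscle markers, 9 of 16 with a probe were above background on every array, Pax7 on 4, Myod1 on 8 and Myf6 on 1. In whole tissue, fewer cells of a type and less RNA per cell cannot be told apart.

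**Figure D1:**
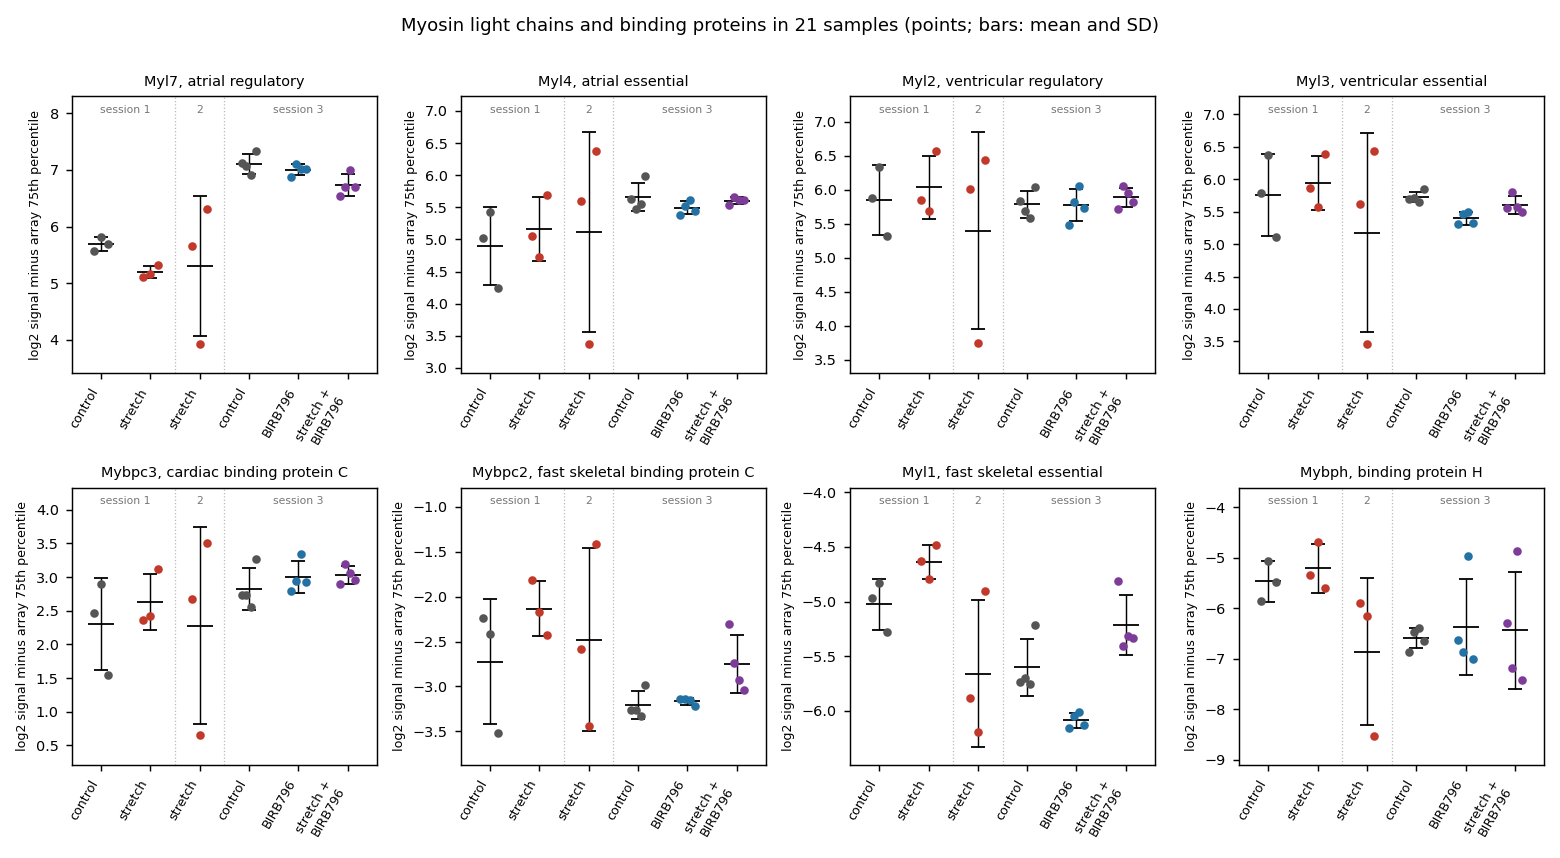
Log2 level (signal minus the array's 75th percentile, vertical axis) of each gene in the 21 samples, by group and scan session; points are samples, the long mark is the mean and the bar its SD, and dotted lines separate the 3 sessions. In session 1 the 3 stretch points of Myl7 lie below the 3 control points, in session 3 the BIRB796 points of Myl1 lie below both other groups, and stretch replicate 6 is the low point of session 2 in the bright cardiac genes.

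Myl7, the atrial regulatory light chain, was lower in stretched than in unstretched tissue of session 1, without passing the test over all genes. In session 1 its log2 level was 5.57, 5.81 and 5.68 in control and 5.11, 5.17 and 5.32 in stretch, so the groups did not overlap. The difference was -0.49 ± 0.17 (SE, n = 3 and 3). It did not pass adjustment over all genes in limma on session 1 alone (unadjusted p = 0.0242, adjusted p = 1.00), nor with all sessions and a session term (SE 0.37, adjusted p = 1.00). In session 3 control tissue read 7.11, 7.06, 6.90 and 7.34, BIRB796 tissue 6.87, 7.11, 7.01 and 7.02, and stretch with BIRB796 tissue 6.53, 6.69, 6.99 and 6.70. The order of the means was control, BIRB796 and stretch with BIRB796, and each neighbouring pair overlapped. Stretch with BIRB796 was -0.38 ± 0.12 from control (n = 4 and 4; limma on session 3 alone, adjusted p = 0.0759) and -0.27 ± 0.12 from BIRB796 (adjusted p = 0.567). With the slide as a random block within session 3, an alternative added after the data were seen, the difference from control was -0.44 ± 0.11. It passed there (limma, adjusted p = 0.0366) as 1 of 1665 genes called among 23479. BIRB796 alone was -0.10 ± 0.12 from control (adjusted p = 0.725).

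The level of Myl7 moved more between scan sessions than between treatments. Control tissue averaged 5.69 in session 1 and 7.11 in session 3, a shift of 1.42. Other genes shifted between the same control groups too, Mybph by -1.13, Myl4 by 0.76, Myl1 by -0.57, Mybpc3 by 0.52 and Mybpc2 by -0.49, while Myl2 and Myl3 shifted by -0.07 and -0.03. Stretch samples of session 2 read 5.66 (replicates 4 and 5), 3.92 (replicate 6) and 6.32 (replicate 7). In a fit that joins sessions 2 and 3 into an array set, these stretch samples are set against control of session 3, and Myl7 was then -1.19 ± 0.29 from control and passed (limma, adjusted p = 0.0268), along with 7.79% of all genes. Within session 1 the difference was -0.49. Stretch and session cannot be told apart in session 2.

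Myl4, the atrial essential light chain, overlapped between groups in every within-session comparison. In session 1 control read 5.03, 5.43 and 4.24 and stretch 5.06, 4.72 and 5.70, which overlap widely. The difference was 0.26 ± 0.39 (limma on session 1 alone, adjusted p = 1.00). In session 3 Myl4 lay between 5.48 and 5.98 in control, 5.38 and 5.61 in BIRB796 and 5.53 and 5.66 in stretch with BIRB796. Neighbouring groups overlapped throughout, and the 3 differences ran from -0.17 to 0.11.

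Myl2, the ventricular regulatory light chain, showed no shift larger than the spread between samples. Session 1 gave 5.88, 6.34 and 5.33 in control against 5.84, 5.70 and 6.57 in stretch. The difference was 0.18 ± 0.35, with a 95% interval from -0.82 to 1.19 in the fit over all sessions, so a change of either sign of about that size could not be seen. In session 3 the means were 5.79 ± 0.20 (SD, n = 4) in control, 5.78 ± 0.24 in BIRB796 and 5.89 in stretch with BIRB796, and all 3 groups overlapped.

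Myl3, the ventricular essential light chain, was lower in all 4 samples with BIRB796 alone, without passing the test over all genes. Of those samples only replicate 1 shared a slide with a control, so slide and BIRB796 can hardly be told apart. Control of session 3 read 5.70, 5.71, 5.65 and 5.84, BIRB796 tissue 5.30, 5.46, 5.49 and 5.33, and stretch with BIRB796 tissue 5.56, 5.80, 5.57 and 5.49. Every BIRB796 sample lay below every control sample and, by a margin that vanishes at 2 decimals, below every stretch with BIRB796 sample. The difference from control was -0.33 ± 0.09 (limma on session 3 alone, adjusted p = 0.0756; with all sessions and a session term SE 0.42, adjusted p = 1.00), and that of stretch with BIRB796 from BIRB796 was 0.21 ± 0.09 (adjusted p = 0.529). In session 1 control and stretch overlapped, at 5.10 to 6.38 and 5.56 to 6.38.

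Mybpc3, the cardiac binding protein C, overlapped between groups in every within-session comparison. Session 1 control samples read 2.46, 2.90 and 1.55 and stretch samples 2.36, 2.42 and 3.11. In session 3 control ran from 2.55 to 3.27, BIRB796 from 2.79 to 3.34 and stretch with BIRB796 from 2.90 to 3.20. The differences ran from 0.03 to 0.33, the latter with an SE of 0.40 in session 1.

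Myl1, the fast skeletal essential light chain, differed more than the other 7 genes in the session 3 comparisons that involve BIRB796 alone, though at a dim signal. Control read -5.74, -5.70, -5.75 and -5.21, BIRB796 tissue -6.16, -6.05, -6.01 and -6.13, and stretch with BIRB796 tissue -4.81, -5.40, -5.32 and -5.33. BIRB796 samples lay below all samples of the other groups, while control and stretch with BIRB796 overlapped. Of the BIRB796 samples only replicate 1 shared a slide with a control. Myl1 was 1.83-fold higher in stretch with BIRB796 than in BIRB796 (log2 difference 0.87 ± 0.15, n = 4 and 4), which missed the threshold over all genes (limma on session 3 alone, unadjusted p = 0.000150, adjusted p = 0.0977). It was -0.49 ± 0.15 in BIRB796 relative to control (adjusted p = 0.117) and 0.38 ± 0.15 in stretch with BIRB796 relative to control (adjusted p = 0.147). In session 1 stretch read -4.63, -4.79 and -4.48, above control at -4.97, -4.83 and -5.28, by 0.39 ± 0.20 (adjusted p = 1.00). A model of signal and background (normexp) was also run, with quantile scaling and a constant added to each signal, which compresses dim probes. It reduced the difference between stretch with BIRB796 and BIRB796 to 0.37 and that between BIRB796 and control to -0.12.

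Mybpc2, the fast skeletal binding protein C, had higher means in stretched tissue with and without the inhibitor, though no difference passed. In session 3 it read -3.27, -3.27, -3.32 and -2.98 in control, -3.14, -3.14, -3.16 and -3.22 in BIRB796, and -2.30, -2.74, -2.93 and -3.03 in stretch with BIRB796. All stretch with BIRB796 samples lay above all BIRB796 samples, and they overlapped control only because replicate 4 read below control replicate 7. The differences were 0.41 ± 0.14 from BIRB796 (limma on session 3 alone, adjusted p = 0.452) and 0.46 ± 0.14 from control (adjusted p = 0.0785). In session 1 stretch read -1.81, -2.17 and -2.42 and control -2.23, -2.42 and -3.52, a difference of 0.59 ± 0.38 (adjusted p = 1.00) with overlap.

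Mybph was too dim and variable to compare. In session 3 control ran from -6.86 to -6.40, BIRB796 from -7.01 to -4.97 and stretch with BIRB796 from -7.42 to -4.86. Its within-session differences ran from -0.06 to 0.25, and in session 3 each had an SE of 0.57. On stretch replicate 7 it was not well above background.

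**Figure D2:**
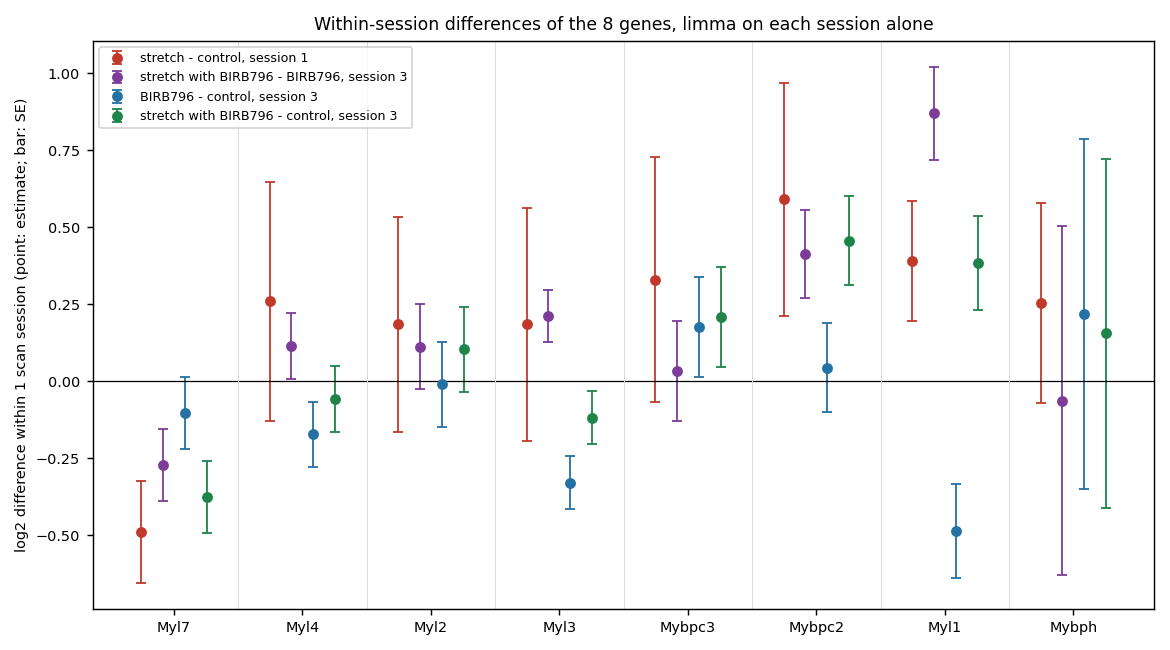
Log2 difference (vertical axis) of each gene in the 4 within-session comparisons; points are limma estimates from 1 scan session alone and bars the SE. Myl7 is below 0 in all 4 comparisons, Mybpc2 is above 0, and Myl1 lies at 0.87 for stretch with BIRB796 relative to BIRB796 and at -0.49 for BIRB796 relative to control.

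Set side by side, stretch without the inhibitor (session 1) and stretch in its presence (session 3) share no samples. Myl7 was lower in both, at -0.49 and -0.27, Myl1 higher, at 0.39 and 0.87, and Mybpc2 higher, at 0.59 and 0.41. Of the 8 genes 7 had the same sign in both, Mybph being the exception, against 55.9% of the 23479 genes tested. Among them Myl2, Myl3, Myl4 and Mybpc3 varied together across samples, so their signs are not separate observations. In session 1 each of these differed by less than its SE. The difference between the effects of stretch with and without BIRB796 was tested as an interaction. It was largest in size for Myl1, at 0.48 ± 0.34 (limma, adjusted p = 1.00), with a 95% interval from -0.25 to 1.21, and it was 0.22 ± 0.49 for Myl7. No member passed (0% of all genes did), and the intervals are too wide to say that the effects are alike.

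Counts over the 8 genes are read against all genes tested. With the session term, 0 members were called at an adjusted p under 0.05 in stretch against control (0% of all genes), BIRB796 against control (0%), stretch with BIRB796 against BIRB796 (0%), stretch with BIRB796 against control (0.0767%, 18 genes) and stretch with BIRB796 against stretch (0%). At an unadjusted p under 0.05 limma had 711, 1459, 440, 2191 and 532 genes in these 5 comparisons. Within session 1 alone 0% of genes passed, and within session 3 alone 1.8% passed for BIRB796 against control, 0.0767% for stretch with BIRB796 against BIRB796 and 7.6% for stretch with BIRB796 against control, again with 0 members. Groups did not overlap for 2 members in session 1 (Myl1 higher and Myl7 lower with stretch), where 8.8% of all genes did not. They did not overlap for 2 members in BIRB796 against control (Myl1 and Myl3 lower; 11.8% of genes), 3 in stretch with BIRB796 against BIRB796 (Myl1, Mybpc2 and Myl3 higher; 6.24%) and 0 in stretch with BIRB796 against control (16.8%). The median difference of the 8 genes was 0.26 in stretch against control, -0.06 in BIRB796 against control, 0.11 in stretch with BIRB796 against BIRB796 and 0.13 in stretch with BIRB796 against control, beside medians over all genes of 0.05, -0.03, 0.05 and 0.04.

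The balance between isoforms was read as the log2 ratio of 2 probes on the same array, in which the array's scaling cancels. Only differences in a ratio between groups have meaning. The 3 ratios in 4 comparisons gave 12 exact permutation tests within a session. None passed after Benjamini-Hochberg adjustment, where the lowest value was 0.114.

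The ratio of the atrial to the ventricular regulatory chain, Myl7 over Myl2, had lower means in stretched tissue, though no difference passed adjustment. Its groups were apart only in stretch with BIRB796 against control, which differ in the inhibitor too. In session 3 it was 1.28, 1.38, 1.32 and 1.30 in control, 1.38, 1.28, 0.95 and 1.29 in BIRB796, and 0.81, 0.64, 1.04 and 0.88 in stretch with BIRB796. No stretch with BIRB796 sample reached a control sample, and the means of 0.84 ± 0.17 and 1.32 ± 0.04 (SD, n = 4 each) differed by -0.48 (exact two-sided permutation p = 0.0286, the smallest that 4 against 4 allow; adjusted p = 0.114). Against BIRB796 the difference was -0.39 (exact permutation p = 0.0571, adjusted p = 0.137), with overlap through BIRB796 replicate 3. In session 1 the ratio was -0.32, -0.53 and 0.36 in control and -0.73, -0.53 and -1.25 in stretch, with a narrow overlap at replicate 2. The difference was -0.67 (exact permutation p = 0.2, where 3 against 3 cannot go below 0.1).

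The ratio of the essential chains, Myl4 over Myl3, differed little between groups. Its differences were 0.08 for stretch in session 1, 0.16 for BIRB796, -0.10 for stretch with BIRB796 relative to BIRB796 and 0.06 relative to control (exact permutation p from 0.114 to 0.571). Between sessions it moved far more, from a control mean of -0.86 in session 1 to -0.06 in session 3. The regulatory and essential pairs thus gave different values for the same atrial to ventricular comparison, and that contrast between the pairs was not tested.

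The ratio of the skeletal to the ventricular essential chain, Myl1 over Myl3, was -11.46, -11.51, -11.50 and -11.45 in BIRB796, below all control samples at -11.43, -11.40, -11.40 and -11.05 and below all stretch with BIRB796 samples at -10.37, -11.21, -10.89 and -10.82. The difference of BIRB796 from control was -0.16 and that of stretch with BIRB796 from BIRB796 was 0.66 (exact permutation p = 0.0286 for each, adjusted p = 0.114). Under normexp and quantile scaling the former changed sign, to 0.15, and the latter was 0.25. That alternative changes the input signal, the background model and the scaling together, and adds a constant to each signal. Which of these turned the sign was not tested.

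**Figure D3:**
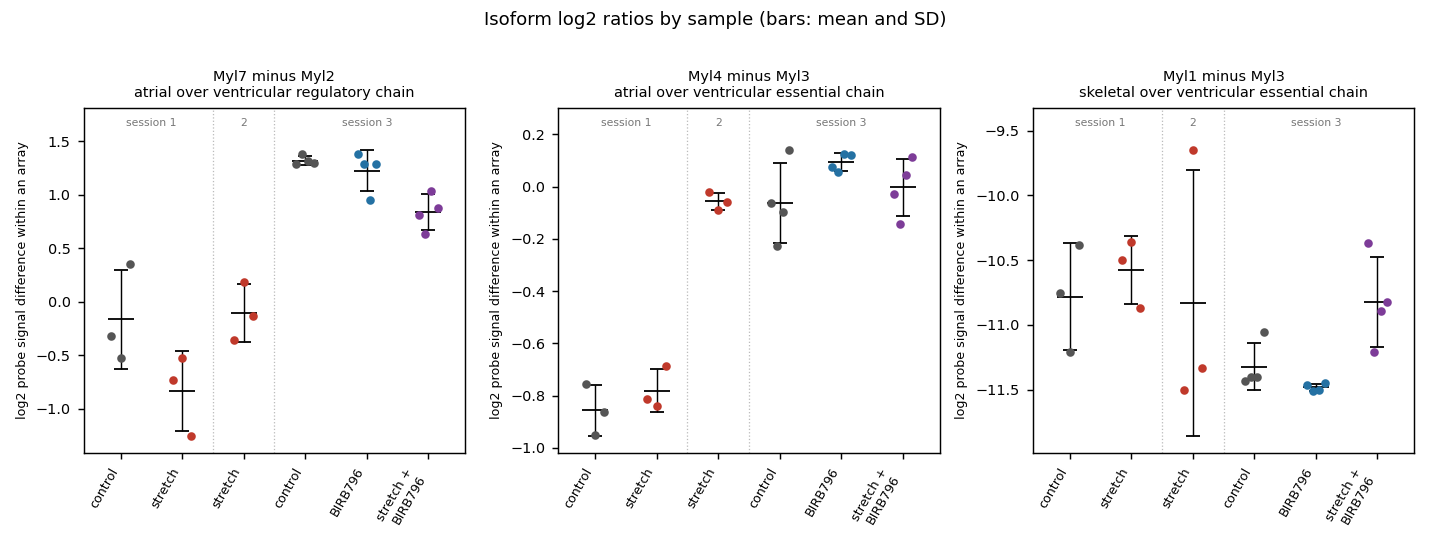
Log2 ratio of 2 probes within an array (vertical axis) for Myl7 over Myl2, Myl4 over Myl3 and Myl1 over Myl3, by group and scan session; points are samples, with the mean and SD. Stretch with BIRB796 lies below control for Myl7 over Myl2 in session 3, the Myl4 over Myl3 groups overlap within each session, and the 4 BIRB796 samples are tightly grouped at the low end for Myl1 over Myl3.

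Across the 21 samples, each set relative to its session mean, the bright cardiac genes varied as a block. Myl3 and Myl4 had a Pearson r of 0.98 (Spearman's rho 0.90), Myl2 and Myl4 0.98, and Myl2 and Mybpc3 0.97, and without stretch replicates 6 and 7 these were 0.94, 0.93 and 0.92 over 19 samples. Myl7 belonged to this block only through those samples: its r with Myl3 was 0.78 over 21 samples and 0.18 over 19. Myl1 was closest among the members to Mybpc2, at 0.77 and 0.67 over the same samples, and Myl7 and Mybpc2 had 0.33 and -0.59. These points share array, scaling and session, and the values are descriptions.

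**Figure D4:**
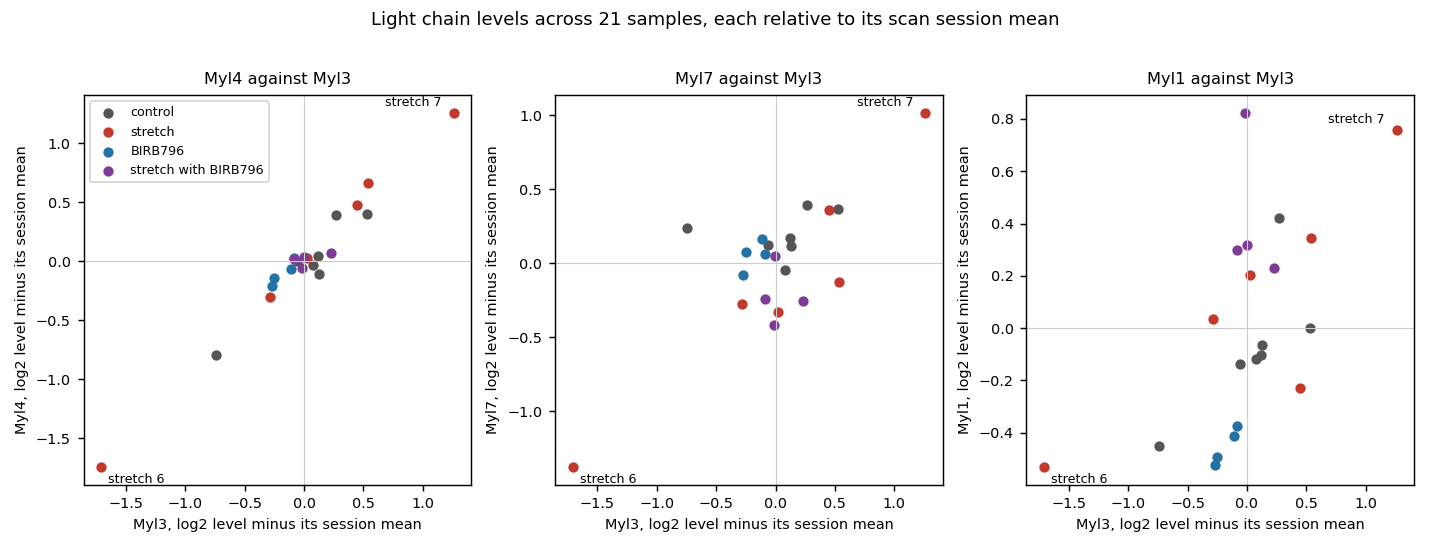
Log2 level of Myl4, Myl7 and Myl1 (vertical axes) against Myl3 (horizontal axis) in the 21 samples, each minus its scan session mean; colours are groups, and stretch replicates 6 and 7 are named. Myl4 lies along a line with Myl3 with or without those samples (r 0.98 and 0.94), whereas the r of Myl7 is lower without them (0.78 and 0.18). Session means include those samples throughout.

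Among the 16264 genes above background on all arrays, the genes most like each member in this pattern were searched. For Myl2 they were Myl4 (r = 0.98) and Apobec2 (0.97), a striated muscle member of the cytidine deaminase family, and for Mybpc3 they were Myl2 (0.97) and Actn2 (0.97), the Z-disc crosslinker alpha-actinin. For Myl3 they were Myl4 (0.98) and Fxyd1 (0.98), which encodes the sodium pump regulator phospholemman, and for Myl4 Myl3 and Ldhb (0.98), a lactate dehydrogenase chain. For Mybpc2 they were Azin2 (0.94) and Casq1 (0.94), the calcium store protein of skeletal muscle, and for Myl1 Dusp13b (0.88) and Hpdl (0.87). For Myl7 they were a transcript named TC615020 in the files (0.90) and Mybphl (0.88), a binding protein H relative expressed in atrial muscle. These were 0.69 and 0.65 when the 2 samples farthest from the median, stretch replicates 6 and 7, were left out after the session means were taken. For Mybph they were Smc3 (0.76) and Cab39l (0.74).

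Mybphl was picked for its likeness to Myl7 over these same samples, so its values are no separate support for those of Myl7. In session 3 it fell by 0.76 ± 0.15 in stretch with BIRB796 relative to control and passed in limma on session 3 alone (adjusted p = 0.0190). In that comparison 7.6% of all genes passed. Relative to BIRB796 it was -0.63 ± 0.15 (limma on session 3 alone, adjusted p = 0.231). With all sessions and the session term it did not pass (adjusted p = 0.526 relative to control).

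The 12 atrial markers did not set the groups apart as a list. Their mean log2 level ran from -2.94 to -2.36 in control and from -2.80 to -2.40 in stretch in session 1, and from -3.01 to -2.62 in control and -2.88 to -2.59 in stretch with BIRB796 in session 3. Of 11 tested, 2 rose in stretch with BIRB796 against control in session 3 alone, the natriuretic peptide gene Nppa (1.89 ± 0.47) and the potassium channel gene Kcna5 (1.14 ± 0.18; limma, adjusted p = 0.0381 and 0.0128), and 0 fell, with 4 positive differences and a median of -0.24. Kcna5 was also higher with BIRB796 alone against control (1.27 ± 0.18, limma on session 3 alone, adjusted p = 0.0202). There it was the 1 gene of 11 that rose, 0 fell, 4 differences were positive and the median was -0.20. Over all genes 7.6% passed in stretch with BIRB796 against control and 1.8% in BIRB796 against control. The list's defining genes Bmp10 and Dhrs9 were near or below background, and the list's part in the Myl7 values was not tested.

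The skeletal muscle markers had a higher mean with BIRB796, but as a list they were mixed. In session 3 their mean log2 level ran from -5.42 to -4.83 in control, -4.76 to -4.41 in BIRB796 and -4.69 to -4.50 in stretch with BIRB796. In BIRB796 against control 10 of 15 differences were positive, with a median of 0.07 beside -0.03 over all genes, and in limma on session 3 alone 2 of 15 rose and 0 fell. These were the embryonic heavy chain Myh3, which rose by 2.73 ± 0.31 (limma, adjusted p = 0.0202), and the adult fast heavy chain Myh1, which rose by 2.59 ± 0.32 (adjusted p = 0.0202), while Myl1 was -0.49 in the same samples. Slide and BIRB796 can hardly be told apart in them. Over all genes 1.8% passed in BIRB796 against control and 7.6% in stretch with BIRB796 against control. Myh3 and Myh1 belong to the 9 sarcomeric heavy chains, of which no other rose in BIRB796 against control, where 4 differences were positive and the median was -0.09. In stretch with BIRB796 against control 10 of the 15 markers were positive, with a median of 0.13, and 3 rose. They were Myh3, Myh1 and the fast heavy chain Myh2, and the 9 heavy chains had 5 positive differences and a median of 0.10. Myh2 was not well above background on any control array of session 3 and was so on 2 of 4 stretch with BIRB796 arrays. Only an approximate bound can be given: it was 1.27-fold higher, taking control at the lowest signal above background on each array. Its adjusted p of 0.0182 (limma) belongs to the difference without that bound, computed on control values not above background. Myh2 passed the filter with 4 of 22 arrays, 0 of them controls of session 3, so its rise is not counted as support. Myod1, Pax7 and Myh2 were above background on 8, 4 and 4 of the 22 arrays, and the markers' part in the Myl1 and Mybpc2 values was not tested.

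Other partners of the 8 genes were counted in session 3 alone, where slide and BIRB796 alone can hardly be told apart against control. Over all genes 1.8% passed there for BIRB796 against control and 7.6% for stretch with BIRB796 against control, the shares beside which the counts below stand. The 4 light chains outside the sarcomere were higher in 4 of 4 with BIRB796, though 0 passed, and in stretch with BIRB796 against control Myl12a (0.35 ± 0.09) and Myl6 (0.35 ± 0.09), light chains of nonmuscle and smooth muscle myosin, rose (limma, adjusted p = 0.0483 and 0.0440). Of 12 kinase and phosphatase genes that act on regulatory chains 0 passed in any comparison, and the cardiac kinase Mylk3 was -0.42 ± 0.14 with BIRB796 (adjusted p = 0.132). Of 14 other thick filament and M-band genes, BIRB796 against control had 1 rise, the LIM protein Fhl1 (0.90 ± 0.19, adjusted p = 0.0473), and 1 fall, the slow binding protein C Mybpc1 (-3.29 ± 0.69, adjusted p = 0.0432), which was well above background on 4 control but 2 BIRB796 arrays. Of 19 thin filament genes 1 rose, tropomyosin Tpm2 (1.29 ± 0.20, adjusted p = 0.0243), and 2 fell, the slow skeletal troponin Tnnt1 (-0.97 ± 0.13) and the tropomodulin Tmod4 (-0.90 ± 0.12; adjusted p = 0.0202 each). Of 15 transcription factors of the contractile programme 0 passed with BIRB796, and in stretch with BIRB796 against control 1 rose, the ventricular repressor Hey2 (1.36 ± 0.35, adjusted p = 0.0436). With stretch against control in session 1, 0 genes of any of these lists passed (0% of all genes did).

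Levels of other cell types moved beside these values. In session 3 the 10 macrophage markers averaged 1.62 to 2.62 in control, 1.61 to 2.02 in BIRB796 and 1.41 to 1.63 in stretch with BIRB796, the 8 endothelial markers -3.07 to -2.62, -3.48 to -2.89 and -3.93 to -3.44, and the 8 smooth muscle markers 1.62 to 2.00, 2.22 to 2.50 and 2.14 to 2.70. The mean of the 11 fibroblast markers had a median of 0.90 in control, 1.05 in BIRB796 and 1.14 in stretch with BIRB796. Control samples ran from 0.31 to 1.11, a span that held every BIRB796 sample. Gene by gene, 4 of the 11 differences were positive in BIRB796 against control, with a median of -0.12. In stretch with BIRB796 against control 7 of 11 were positive, with a median of 0.21, and 0 passed in either comparison. The 12 cardiomyocyte markers overlapped, at 4.45 to 4.78, 4.36 to 4.52 and 4.43 to 4.60, with 0 passing. The part of these shifts in the light chain values was not tested.

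Promoter windows are described as sequence only, and their part in the joint variation of genes was not tested. RefSeq windows on build GRCr8, the 250 bases before a gene's start, were given for 6 of the 8 genes (7 windows, Myl1 having 2), and are not shown for Myl2 and Mybph. Shown are windows of a member of the tightly varying cardiac block with a CArG element, the letters to which serum response factor binds, and of the 2 with an element of MEF2, a muscle transcription factor; the capitals mark these elements. They lie at chr8:119616844-119617093 (plus strand, Myl3), chr3:97550811-97551060 (plus strand, Mybpc3) and chr9:75897800-75898049 (minus strand, Myl1).
Myl3: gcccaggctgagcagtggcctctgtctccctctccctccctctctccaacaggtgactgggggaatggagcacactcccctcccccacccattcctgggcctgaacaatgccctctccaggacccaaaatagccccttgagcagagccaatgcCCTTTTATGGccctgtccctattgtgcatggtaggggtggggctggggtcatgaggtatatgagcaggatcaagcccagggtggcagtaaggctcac
Mybpc3: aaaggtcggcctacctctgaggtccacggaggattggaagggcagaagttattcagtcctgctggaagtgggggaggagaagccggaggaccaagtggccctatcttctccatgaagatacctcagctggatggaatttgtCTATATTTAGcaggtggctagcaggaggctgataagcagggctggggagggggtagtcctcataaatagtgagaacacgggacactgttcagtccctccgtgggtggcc
Myl1: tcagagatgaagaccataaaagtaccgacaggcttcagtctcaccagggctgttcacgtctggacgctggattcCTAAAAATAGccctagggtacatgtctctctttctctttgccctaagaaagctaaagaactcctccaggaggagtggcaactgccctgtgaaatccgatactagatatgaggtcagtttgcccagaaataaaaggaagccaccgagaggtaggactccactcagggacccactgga

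On either strand, MEF2 elements were found in 2 of the 7 windows, against 2.96% of 33469 promoter windows of the same length, and CArG elements in 1 of 7, against 1.5%. The E-box CANNTG was in 7 of 7 (65.5% of all windows), GATAA in 1 of 7, Mybpc3 (23.5%), CATTCC, the core letters of TEAD factor sites, in 2 of 7, Mybpc2 and Myl3 (12.1%), and TATAAA in 2 of 7, Myl1 and Myl4 (12.9%). In the 3 windows shown no match overlaps another. A match describes letters only.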

How the data were processed

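Cy3-labelled total RNA of each sample was hybridised to a 1-colour Agilent rat array, per the labels' protocols. Deposited spot intensity values (gProcessedSignal) had been background-subtracted and detrended within each array by Feature Extraction, per the file headers, with no scaling across arrays. A log2 table of 27873 probes was deposited as well. All 22 of its columns correlated best with their own array, which gives its scale and direction; its centring is unknown, its column medians ran from -0.11 to 0.40, and it was used as an alternative.

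Control spots and flagged spots were left out, spots of a probe were averaged, and log2 signals were set relative to each array's 75th percentile. A probe was kept if it was well above background on 4 or more arrays (26884 of 30367), with the brightest per gene, leaving 23479 genes. Names came from RefSeq by accession (17998 probes), symbol (2359) or synonym (615), and 9395 kept the files' name. The number of arrays limits the precision.

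Differences were fitted in R 4.3.3 with limma 3.58.1 on all 4 groups together with scan session as a term, and on sessions 1 and 3 alone, two-sided with Benjamini-Hochberg adjustment over all genes; a gene was called at an adjusted p under 0.05. The limma steps were tested on simulated data. Ratios used exact permutation tests in Python 3.11.15. In session 1 each replicate number was also a slide holding 1 control and 1 stretch array. Same-numbered samples deviated together most closely for replicates 1 and 3 (r = 0.51 and 0.57) but not for replicate 2 (r = 0.15). The numbers thus pair the samples there only in part. Session 1 values above are from unpaired tests, and blocking on the numbers within session 1 changed no member's call. For BIRB796 and stretch with BIRB796 only replicate 1, on slide 6 in both groups, deviated together (r = 0.53). Replicates 2, 3 and 4 did not (r = 0.01, 0.08 and 0.08), so the numbers were not used as pairs.

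All 8 genes are reported in every comparison, with the 2 genes most like each and, from each gene list, the called members or the 2 with the smallest p. The members and lists were chosen with earlier results of these data known. Alternatives were other batch terms, slide or replicate blocks, scaling by the median, normexp with quantile scaling (on the median spot signal, since the mean was not given for every array), the authors' table, other filters and probe rules, all arrays apart, control replicates 5 and 6 averaged, and each replicate left out. In the normexp alternative a constant was added to each signal. The 2 blocked fits of single sessions and the fit without stretch replicates 6 and 7 were chosen after seeing the data.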

Additional observations from a re-analysis of the deposited data

Results flagged for a closer look

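A sample far from the others of its group was searched for in 44 sets of values, 8 genes and 3 ratios in groups of 4 to 7 samples, and 3 were found; chance alone gives about 1 in 20. Stretch replicate 6 was far below the other 5 stretch samples in Myl2, at 3.74 against 5.70 to 6.57, and in Myl3, at 3.46 against 5.56 to 6.43. It was low in Myl4, Myl7 and Mybpc3 as well, and the cardiomyocyte markers averaged 2.96 on it. Stretch with BIRB796 replicate 1 was the highest of its group in Myl1, at -4.81 against -5.40 to -5.32. Without it the difference of Myl1 from BIRB796 was 0.73, so its direction did not rest on that sample. No difference between the effects of stretch with and without BIRB796 was called for these genes.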

How the results depend on the processing

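Of the 8 genes, none was called under any alternative run except Myl7, which was called in stretch against control with an array set term (-1.19), in stretch with BIRB796 against control in session 3 with the slide as a random block (-0.44), and in stretch with BIRB796 against stretch under the replicate block (1.54), where session and group cannot be told apart. Counts of genes called over the whole array depended on the batch term. For stretch against control the count was 0 with the session term, 1829 with an array set term, 257 with no batch term and 1 with the slide as a random block. For stretch with BIRB796 against control the 18 genes became 2, 1, 69 and, within session 3 alone, 1784 (1665 with the slide as a random block), 0 under the replicate block, 0 with control replicates 5 and 6 averaged, and 655 without stretch replicates 6 and 7. For BIRB796 against control the 0 genes became 422 in session 3 alone (62 with the slide block), 1 under normexp and 125 without those stretch samples. For stretch with BIRB796 against BIRB796 they became 18 in session 3 alone and 24 with the slide block. For stretch with BIRB796 against stretch they became 236 with the array set term, 132 with no batch term and 8871 under the replicate block. The cause of these shifts was not tested.

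Leaving out each replicate in turn gave 0 to 197 calls in stretch with BIRB796 against control (197 without stretch replicate 7 and 142 without control replicate 7), 0 to 17 in BIRB796 against control (17 without control replicate 7), 0 to 2 in stretch with BIRB796 against BIRB796, and 0 to 1 in stretch with BIRB796 against stretch and in the interaction. Among the ratios, Myl1 over Myl3 in BIRB796 against control changed sign under normexp, to 0.15 (exact permutation p = 0.0571), and stretch with BIRB796 against BIRB796 was 0.25 there (exact permutation p = 0.114). Leaving out each replicate, these 2 ran from -0.19 to -0.067 and from 0.51 to 0.79, Myl1 over Myl3 for stretch in session 1 from -0.0072 to 0.40, Myl4 over Myl3 from 0.10 to 0.22 for BIRB796 and from -0.14 to -0.050 for stretch with BIRB796 against BIRB796, and Myl7 over Myl2 from -0.48 to -0.32 for the latter and from -0.55 to -0.41 against control. The replicate block changed no other member's call. Dim signal limits Myl1, Mybpc2 and Mybph. The sign changed in 113 of the 1738 member values recomputed under alternatives, all of them uncalled under both settings and at most 0.38 in size as reported.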
